A study of Mus musculus with 8 samples.

Results

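Mouse embryonic stem (mES) cells that carried the fewest transcripts of 7 naive pluripotency factors were examined by single-cell RNA-seq in 2 conditions, untreated control cells and cells treated with CX-5461, an inhibitor of RNA polymerase I. The cells were selected on the summed UMIs (unique molecular identifiers, 1 per captured transcript) of Zfp42, Esrrb, Tfcp2l1, Klf2, Klf4, Klf5 and Nanog as a share of all UMIs of the cell. In each library the lowest 10% of the kept cells formed the naive-low cells, which were 247 of 2474 control cells and 399 of 3992 CX-5461 cells, 646 of 6466 in all. A kept cell had at least 5000 UMIs, at most 0.1 of them on mitochondrially encoded genes, less than 0.1% of them on Col1a1, Col1a2 and Col3a1, and 1 or more UMI of Pou5f1. The deposited tables held 8760 barcodes before these limits, 3838 of control and 4922 of CX-5461. The highest 10% by the same share, 247 and 399 cells, were the comparison group, called naive-high cells, and the remaining kept cells are called the middle.

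Both conditions were E14 mES cells without a genetic change, of inner cell mass origin, kept on mouse embryonic fibroblast feeders in LIF/2i medium. The dose and time of CX-5461 for these libraries were not given in the labels used here. The labels list 4 samples per condition, but the barcodes of a condition stood together in 1 table that does not say which sample a barcode came from. The study states 1 biological replicate for its single-cell RNA-seq. Each condition was therefore treated as 1 library, and treatment and library cannot be told apart. No test between groups was made. Intervals are exact 95% intervals for counting error only, and cells of 1 library are not replicates. Barcodes were numbered and not spelled out, so those shared between the libraries could not be counted.

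Naive pluripotency is the ground state of mES cells in LIF/2i. It is held by a circuit of transcription factors in which Nanog, Esrrb, Tfcp2l1 and the Klf factors activate each other and Zfp42 (Rex1) serves as the usual reporter. Cells that lose the circuit lower these genes before they lose Pou5f1 (Oct4), which primed and formative cells keep, and single cells of one culture differ in Nanog and Zfp42.

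The 7 genes that chose the cells are given as a description. The summed share ranged from 0% to 0.0838% in the control naive-low cells and from 0% to 0.0577% in the CX-5461 naive-low cells, with medians of 0.0692% and 0.0418%. The medians of the middle cells were 0.138% and 0.115%, and those of the naive-high cells 0.234% and 0.192%. The limit of the naive-low cells lay in a dense part of both distributions, where the last cell inside had 0.0838% and the first outside 0.0840% in control, and both had 0.0577% in CX-5461. A median naive-low cell carried 9 UMIs of the 7 genes in control and 5 in CX-5461, against 22 and 17 in the middle. All 7 genes were at 0 UMIs in 1 control and 10 CX-5461 members. UMIs per cell were similar between the groups, with medians of 14750, 15989 and 14263 in the control naive-low, middle and naive-high cells and 13414, 15170 and 13284 in the CX-5461 ones.

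**Figure D1:**
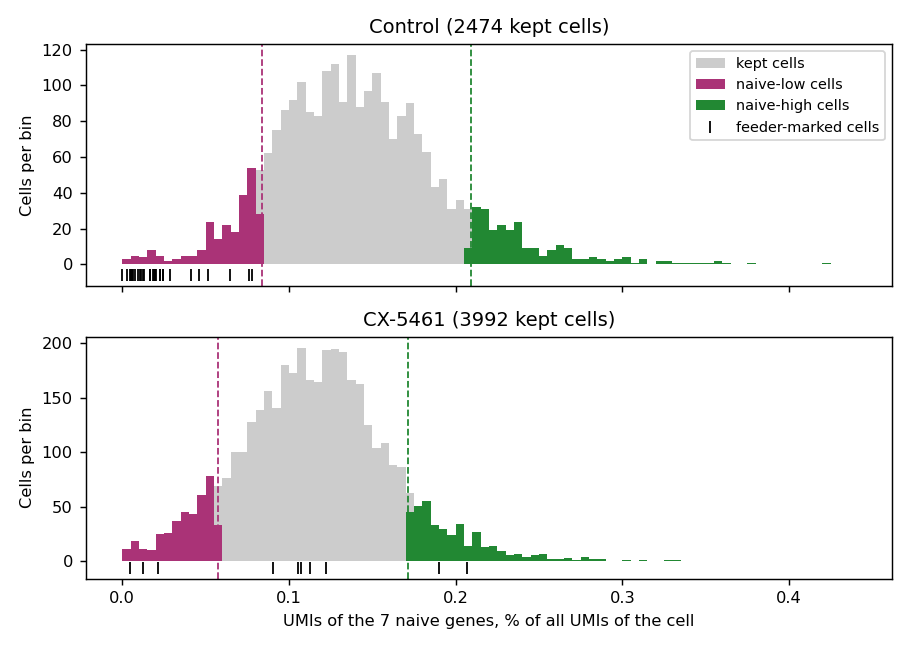
Share of UMIs on the 7 naive genes per kept cell (x axis, percent) against the number of cells per bin (y axis) for the control (top) and CX-5461 (bottom) libraries. The naive-low cells (purple, left of the dashed line at 0.0838% and 0.0577%) and the naive-high cells (green) are the tails of 1 continuous distribution, and the 31 feeder-marked control cells (black ticks) are all among the naive-low cells.

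Zfp42 was the most abundant of the 7 and was summed at 322 CPM (UMIs of the gene per 1000000 UMIs of the group) in the control naive-low cells, 806 in the middle and 1502 in the naive-high cells. In CX-5461 the same 3 groups held 116, 444 and 793 CPM of Zfp42. Nanog stood at 95.6, 184 and 288 CPM in control and at 48.3, 230 and 383 CPM in CX-5461, so the treated library had more Nanog than control in its middle and naive-high cells and less in its naive-low cells. A Nanog UMI was found in 72.1% of control members and 38.6% of CX-5461 members, and in 37.7% and 22.1% when every cell was thinned to 5000 UMIs. The share in the collagen-rich feeder cells, which should lack Nanog, was 13.5% of 133 control cells and 10.3% of 145 CX-5461 cells at medians of 22994 and 25543 UMIs. Klf4 and Klf5 went the other way between the libraries. Klf5 was at 43.4 CPM in the control and 74.2 CPM in the CX-5461 naive-low cells, and Klf4 at 48.0 and 70.4 CPM.

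To see how far the 7 genes varied together, each was measured in cells chosen on the remaining 6. Every gene was then still lower in the naive-low than in the naive-high cells. The log2 ratios lay between -1.003 for Esrrb and -0.61 for Klf2 in control, and between -1.36 for Klf2 and -0.54 for Klf4 in CX-5461. Without the feeder-marked and 2C-marked cells defined below, they lay between -0.85 for Klf4 and -0.41 for Klf2 in control, where Nanog went from -0.68 to -0.42 and Zfp42 from -0.76 to -0.52, and between -1.26 for Klf2 and -0.50 for Klf4 in CX-5461. In CX-5461, Nanog followed the other 6 genes with a log2 ratio of -1.20 (-1.33 to -1.07) and Zfp42 with -0.98 (-1.07 to -0.89). When each cell's UMIs were split at random into equal parts, the cells chosen on the first part and measured on the other, the log2 ratio of the summed genes was -1.12 in control and -1.24 in CX-5461, against -1.99 and -2.34 on the UMIs used for the choice. In control, 30 of the 247 naive-low cells so chosen were feeder-marked. No value without the marked cells was computed for this split.

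The ES label was checked against marker genes. Pou5f1 cannot check it, since every kept cell had to carry a UMI of it, and is given as a description. It was summed at 790 CPM in the control naive-low cells, 947 in the middle and 962 in the naive-high cells, and at 682, 771 and 670 CPM in CX-5461. The 8 general ES markers (Pou5f1, Sox2, Sall4, Lin28a, Utf1, Tdgf1, Dppa4 and Dppa5a) summed to 5608 CPM in the control and 6372 CPM in the CX-5461 naive-low cells, against 6497 and 7390 CPM in the middle, and none of the 7 besides Pou5f1 was at 0. Dppa5a alone made up most of these sums, so they say little about the other markers. The general pluripotency list, described below, was at 907 against 1318 CPM in the naive-low and naive-high cells of control. In CX-5461 it was at 644 against 1336 CPM. The 5 formative markers (Otx2, Dnmt3a, Dnmt3b, Fgf5 and Pou3f1), which mark the step out of the naive state, were at 14.6 and 20.4 CPM in the naive-low cells and at 26.7 and 32.5 CPM in the naive-high cells, so the naive-low cells did not hold more of them. The 5 mesendoderm markers (T, Mixl1, Eomes, Mesp1 and Foxa2) summed to 5.39 CPM in the naive-low and 8.64 CPM in the naive-high cells of control, and to 10.9 (8.35 to 14.1) and 7.35 (5.25 to 10.0) CPM in CX-5461. The 6 primitive endoderm markers summed to 5.14 (3.14 to 7.93) and 0.54 (0.065 to 1.95) CPM in control, on 20 and 2 UMIs, and to 5.29 and 4.41 CPM in CX-5461. On a separate primitive endoderm gene list the control log2 ratio was 1.65 (1.08 to 2.25) with all kept cells and -0.58 (-1.41 to 0.22) without the feeder-marked and 2C-marked cells described next.

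Some control naive-low cells went against the label. A cell was called feeder-marked when at least 0.1% of its UMIs fell on 18 fibroblast markers that the rule had not used, a limit set after the values were seen. All 31 feeder-marked kept cells of the control library were among the naive-low cells, where they made up 12.6% (8.69 to 17.3%) of the members and 16.9% of their UMIs. None was in the middle or the naive-high cells. In CX-5461, 3 naive-low, 5 middle and 2 naive-high cells were feeder-marked. The 31 control cells passed the Pou5f1 limit with a median of 1 UMI (highest 8), and their Pou5f1 was summed at 80.7 CPM, against 933 CPM in the other 216 members. Dppa5a, an abundant ES transcript, stood at 306 CPM in them and at 5110 CPM in the others. They carried smooth muscle actin Acta2 at 2121 CPM (others 4.33 CPM), the ferritin light chain Ftl1 at 25671 CPM (155 CPM), S100a6 at 9189 CPM (42.3 CPM) and galectin Lgals1 at 7767 CPM (177 CPM). Of the 7 naive genes only Klf4 was higher in them, at 97.5 CPM against 38.0 CPM, and Klf4 was also at 157 CPM in the collagen-rich cells that the rule had left out. All 175 UMIs of the macrophage gene Lyz2 in the control naive-low cells came from 1 of these 31 cells.

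Cells with 2-cell-like (2C) transcripts were also among the naive-low cells. The 2C program is the set of genes that the 2-cell embryo transcribes, such as the Zscan4 cluster, and a rare fraction of mES cells passes through it. At 5 or more UMIs of 28 listed 2C genes (2C-marked), 23 of 399 naive-low cells of CX-5461 (5.76%, 3.69 to 8.52%) were found, against 71 of 3194 middle cells (2.22%, 1.74 to 2.80%) and 12 of 399 naive-high cells (3.01%, 1.56 to 5.19%). The strongest such cells were mostly members. At 5000 CPM or more there were 15 naive-low cells, 6 middle cells and 1 naive-high cell, and those 15 cells held 96.1% of the 2C UMIs of the naive-low cells. Zscan4d was summed at 42.8 CPM in the naive-low, 2.02 in the middle and 3.49 in the naive-high cells. Pou5f1 was at 502 CPM in the 15 cells and at 688 CPM in the other CX-5461 members. In control, 3 members were 2C-marked and 1 of them held 628 of the 714 UMIs.

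Because of these cells, each comparison was made for all kept cells and again with feeder-marked and 2C-marked cells left out and the cells chosen anew, which left 243 control and 387 CX-5461 cells per group. The second value is given for a gene where it crossed the 1.5-fold limit or moved by over 1.5-fold, and for some others. Genes were compared by the log2 ratio of CPM, naive-low over naive-high cells, when they had at least 200 UMIs over both, and were called when past 1.5-fold. In control, 211 of 3497 genes (6.03%) were higher and 244 (6.98%) lower in the naive-low cells. In CX-5461, 558 of 5153 genes (10.8%) were higher and 610 (11.8%) lower. With trimmed-mean (TMM) scaling the split was 254 higher and 182 lower in control and 636 higher and 456 lower in CX-5461. Without the marked cells, the control counts were 62 of 3381 higher (1.83%) and 173 lower (5.12%), and the CX-5461 counts 518 of 5043 higher (10.3%) and 564 lower (11.2%). Leaving out the marked cells thus removed most of the higher genes of control and few of those of CX-5461. The median log2 ratio of all tested genes was -0.03 in control and -0.08 in CX-5461.

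Few genes were higher in the naive-low cells of both libraries. Of 3388 genes tested in both, 23 (0.679%) were past 1.5-fold higher in both and 120 (3.54%) lower in both. The 23 were 12.4% of the 185 control calls and 21.5% of the 107 CX-5461 calls among these genes. The 120 were 51.7% of 232 and 28.8% of 417. Without the marked cells, 4 genes were higher in both and 78 lower in both.

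**Figure D2:**
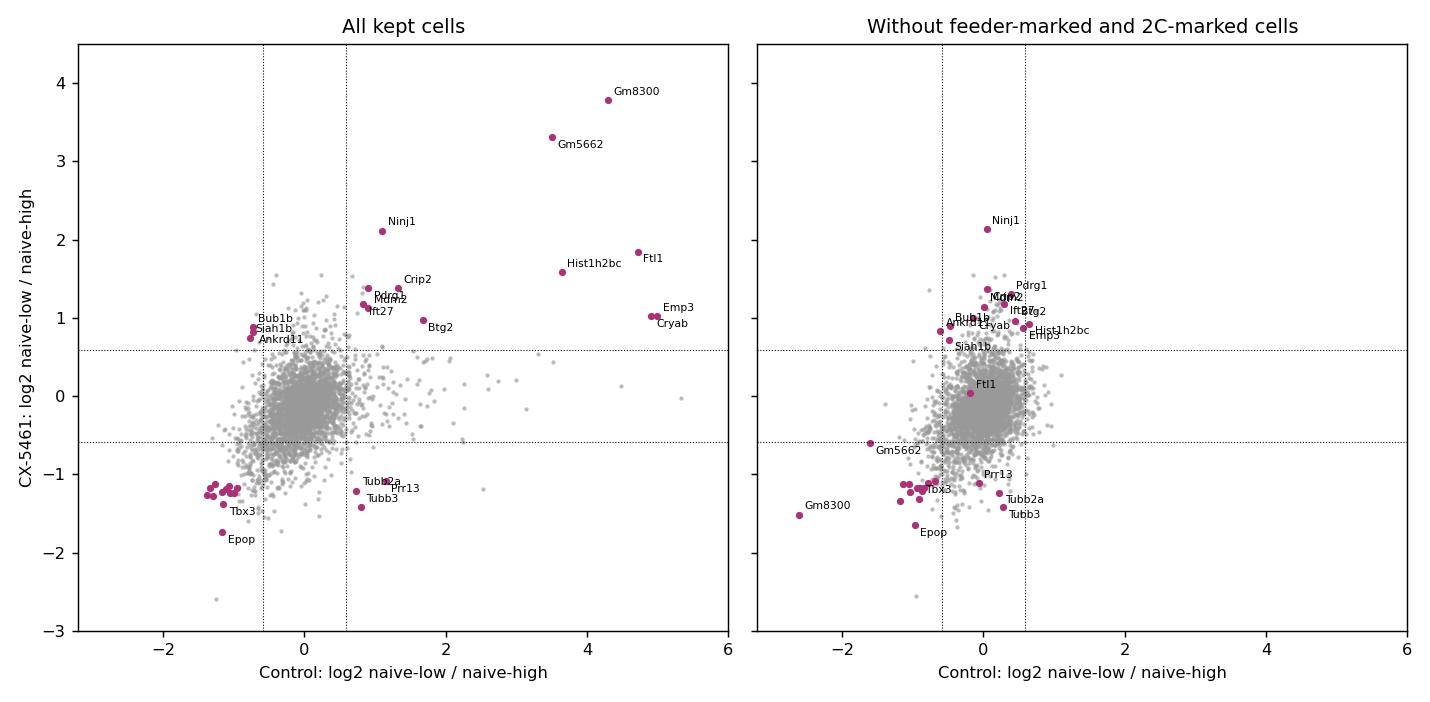
Log2 ratio of the naive-low over the naive-high cells for genes tested in both libraries, control on the x axis and CX-5461 on the y axis, for all kept cells (left) and without feeder-marked and 2C-marked cells (right). Dotted lines mark 1.5-fold and purple points the genes named by rule. Ftl1 and Cryab, at 4.72 and 4.90 in control on the left, lie at -0.18 and -0.15 on the right, whereas Ninj1 has 2.11 and 2.13 in CX-5461.

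Of the 12 protein-coding genes with the highest ratios in the naive-low cells of both libraries, several fell in control but not in CX-5461 once the marked cells were left out. Ninj1, a membrane protein, was at 36.0 CPM in the control naive-low cells and 16.7 in the naive-high cells, and at 164 and 37.8 CPM in CX-5461. Its log2 ratios were 1.10 (0.66 to 1.56) and 2.11 (1.89 to 2.34), and without the marked cells 0.05 and 2.13. Mdm2, the ubiquitin ligase that degrades p53, had log2 ratios of 0.90 in control and 1.12 in CX-5461, which became 0.02 (-0.35 to 0.38) and 1.14 (1.00 to 1.28). Btg2, an antiproliferative gene, had 1.68 and 0.97, which became 0.45 (-0.03 to 0.93) and 0.96 (0.84 to 1.09). For these 3 genes the control interval then included 0 and the CX-5461 ratio was nearly the same. Pdrg1, a chaperone subunit, had 0.91 and 1.38, which became 0.39 and 1.30. The cysteine-rich protein gene Crip2 (1.32 and 1.38) and the ciliary gene Ift27 (0.83 and 1.18) went to 0.06 and 0.29 in control and stayed at 1.37 and 1.18 in CX-5461. Of the other 6, Gm8300 (4.30 and 3.78) and Gm5662 (3.50 and 3.31) belong to the 2C genes, and few of their UMIs were left without the marked cells. Ftl1 went from 4.72 and 1.85 to -0.18 and 0.03, and leaving out the 1 richest cell of each group took its CX-5461 value to 0.98. The small heat shock protein gene Cryab (4.90 and 1.02) became -0.15 and 1.00, Emp3 (4.99 and 1.02) became 0.57 and 0.87, and the histone gene Hist1h2bc (3.64 and 1.58) became 0.65 and 0.93.

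The named genes with the lowest ratios in the naive-low cells of both libraries kept their sign without the marked cells, with log2 ratios of -1.18 to -0.68 in control and -1.64 to -1.09 in CX-5461. Tbx3, a T-box factor of the naive circuit that the rule had not used, was at 66.8 CPM in the control naive-low cells, 108 in the middle and 148 in the naive-high cells, and at 49.4, 102 and 129 CPM in CX-5461. Its log2 ratios were -1.15 (-1.37 to -0.93) and -1.38 (-1.59 to -1.18), and -0.91 and -1.31 without the marked cells. Sox2, the partner of Pou5f1, had -1.05 and -1.24, and -0.85 and -1.17 without them. Tet1, a 5-methylcytosine dioxygenase, had -1.16 and -1.22. Epop, a Polycomb-associated protein, had -1.16 and -1.74 (-2.10 to -1.40), and Kdm5b, an H3K4 demethylase, was at 60.6 against 121 CPM in control and had -1.24 in CX-5461. Prc1 of the mitotic spindle midzone (-1.29 and -1.28), Dbf4, the activator of the replication kinase Cdc7 (-1.07 and -1.14), and the deubiquitinase gene Usp1 (-1.34 and -1.17) belong to the dividing cell. Cobl, Cand1 and Nfatc2ip lay between -1.38 and -0.95 in control and between -1.27 and -1.18 in CX-5461.

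General pluripotency genes were lower in the naive-low cells of both libraries. The 12 genes of the list summed to 907 CPM in the control naive-low cells, 1104 in the middle and 1318 in the naive-high cells, and to 644, 1139 and 1336 CPM in CX-5461. The log2 ratios were -0.54 (-0.60 to -0.48) in control and -1.05 (-1.11 to -0.99) in CX-5461, and -0.29 and -1.02 without the marked cells. Of the tested members, 5 of 9 in control and 9 of 10 in CX-5461 were past 1.5-fold lower and none was higher, against 6.98% and 11.8% of all genes. Without the marked cells, 3 of 9 in control and 9 of 10 in CX-5461 were lower, beside 5.12% and 11.2% of all genes. Sall4, a zinc finger partner of the Pou5f1 network, was at 65.2 against 103 CPM in control (-0.65, -0.89 to -0.42, and -0.40 without the marked cells) and at 15.3 against 40.8 CPM in CX-5461 (-1.41, -1.79 to -1.04). Tdgf1 (Cripto), a Nodal co-receptor, had -0.37 in control and -1.16 in CX-5461, the RNA-binding protein gene L1td1 -0.70 (-0.40 without the marked cells) and -1.26, and the corepressor gene Trim28 -0.80 and -1.18. Of the naive factors outside the rule, 2 of 9 tested in control and 7 of 12 in CX-5461 were past 1.5-fold lower. None was higher, and 6.98% and 11.8% of all genes were lower. Without the marked cells, 2 of 9 were lower and 1 higher in control, beside 5.12% and 1.83% of all genes. In CX-5461, 7 of 12 were still lower, beside 11.2%, and none was higher. Nr0b1 (Dax1) of this list differed in sign. It was at 61.6 against 47.3 CPM in control (0.38, 0.10 to 0.67, and 0.61 without the marked cells). In CX-5461 it was at 32.4 against 65.0 CPM (-1.003, -1.27 to -0.74). Dppa5a, the most abundant of that list, had -0.21 and -0.04, so the abundant and the rare factors did not move evenly.

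Among signalling lists, LIF and STAT3 was lower as a sum in both libraries, more so in CX-5461. Nodal and BMP was lower in CX-5461, and in control only without the marked cells. In the LIF and STAT3 list, whose cytokine input keeps Klf4 and Tfcp2l1 on, 2 of 4 tested genes in control and 3 of 5 in CX-5461 were past 1.5-fold lower, beside 6.98% and 11.8% of all genes. Without the marked cells the counts were 0 of 3 and 4 of 5, beside 5.12% and 11.2%. The summed log2 ratios were -0.44 (-0.58 to -0.29) and -0.77 (-0.90 to -0.64), and without the marked cells -0.52 (-0.67 to -0.37) and -0.71 (-0.84 to -0.58). Stat3 itself had -0.15 in control and -0.82 in CX-5461, and its feedback inhibitor Socs3 had -0.50 (-0.68 without the marked cells) and -0.86. The Nodal and BMP list summed to 0.05 (-0.10 to 0.20) in control, which became -0.40 without the marked cells, and to -0.75 (-0.85 to -0.64) in CX-5461. There 4 of 5 tested genes were lower, against 11.8% of all genes, with Id3 at -0.92, Lefty2 at -1.13 and Smad7 at -1.10. In control, Id3 had -0.02 with the feeder-marked cells and -0.65 (-0.90 to -0.41) without the marked cells. In the ERK target list 2 of 4 tested genes in CX-5461 were lower and 0 higher, beside 11.8% and 10.8% of all genes. In control 0 of 5 were lower and 1 higher, beside 6.98% and 6.03%. The summed log2 ratio was -0.41 in CX-5461 and 0.17 in control, which became -0.38 and -0.20 without the marked cells. Ccnd1 and Etv5, which FGF and ERK signalling induce, had -1.07 and -0.87 in CX-5461, against 0.28 and -0.49 in control with all kept cells.

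**Figure D3:**
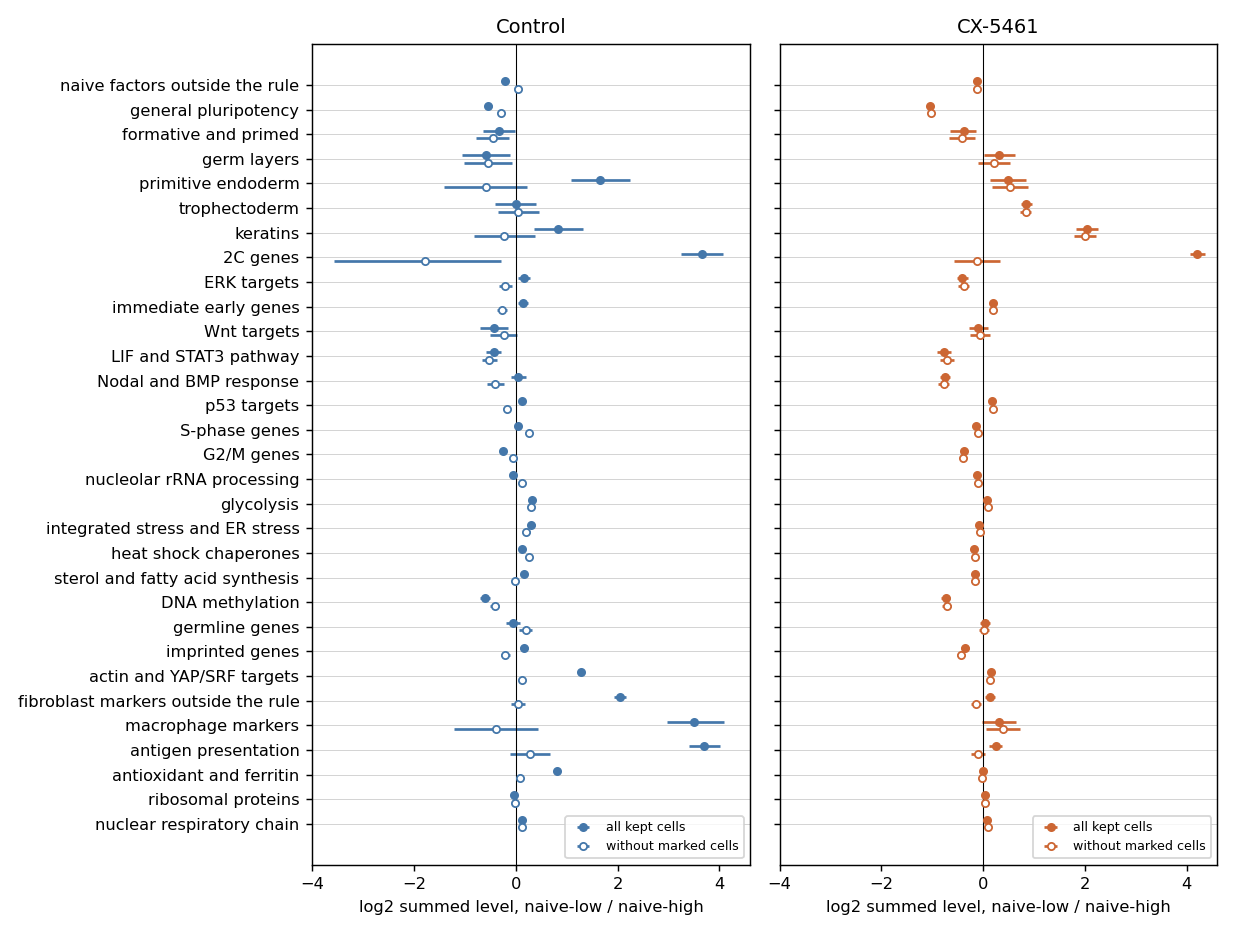
Log2 ratio of the summed UMIs of each gene list, naive-low over naive-high cells, in control (left) and CX-5461 (right), with 95% counting intervals as bars. Filled points are all kept cells and open points leave out feeder-marked and 2C-marked cells. In control the fibroblast, macrophage, antigen presentation and actin lists sit between 1.28 and 3.70 when filled and between -0.39 and 0.28 when open. In CX-5461 the 2C genes go from 4.21 to -0.12, while keratins stay at 2.04 and 2.00.

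Most genes that were 4-fold or more higher in the CX-5461 than in the control library were higher still in the CX-5461 naive-low cells. Genes were binned by their CPM in the middle cells of CX-5461 over the middle cells of control, cells that are in neither group. Of the 289 tested genes at 4-fold or more higher in CX-5461, 198 (68.5%) were past 1.5-fold higher in the CX-5461 naive-low cells than in its naive-high cells and 6 lower, against 10.8% and 11.8% of all genes. Of the 1401 genes 1.5-fold to 4-fold higher in CX-5461, 260 (18.6%) were higher and 101 (7.21%) lower, with a median log2 ratio of 0.05. Of the 3110 genes within 1.5-fold between the libraries, 81 (2.60%) were higher and 459 (14.8%) lower. Of the 328 genes 1.5-fold to 4-fold lower in CX-5461, 12 (3.66%) were higher and 44 (13.4%) lower. Of the 25 genes 4-fold or more lower in CX-5461, 7 (28%) were higher and 0 lower, so the shares did not fall evenly across the bins. Without the marked cells the first share was 186 of 277 (67.1%). The 289 genes summed to 26986 CPM in the naive-low cells, 14584 in the middle and 14640 in the naive-high cells of CX-5461. In control they summed to 3840, 2013 and 2088 CPM, with cell medians of 2075, 1905 and 1957 CPM. These bins were made after the values were seen. Because genes entered with at least 200 UMIs over the naive-low and naive-high cells, a gene rare elsewhere could enter through the naive-low cells alone, which favours a high share. With genes admitted by at least 800 UMIs in the middle cells of CX-5461 instead, 128 of 221 genes at 4-fold or more (57.9%) were higher and 8 lower, against 7.68% and 13.9% of the 5368 genes so admitted. The 221 genes summed to 23706 CPM in the naive-low cells, 13851 in the middle and 13947 in the naive-high cells.

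Members of the CX-5461 naive-low cells differed widely in this level. The quartiles over the 399 cells were 16847, 24964 and 37566 CPM, and the cells spanned 6742 to 78282 CPM. The middle cells had quartiles of 11437, 13764 and 17004 CPM. Of the members, 188 (47.1%, 42.1 to 52.1%) lay above the 95th percentile of the middle cells, 25676 CPM, against 9 of the naive-high cells (2.26%, 1.04 to 4.24%). Among the 373 members without marks, 168 did (45.0%, 39.9 to 50.2%). On the 221 genes admitted by the middle cells alone, 177 members (44.4%, 39.4 to 49.4%) and 10 naive-high cells (2.51%, 1.21 to 4.56%) lay above the same percentile. The other members overlapped the middle cells. The mitochondrial share had medians of 3.97% in the naive-low, 4.00% in the middle and 4.14% in the naive-high cells.

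**Figure D4:**
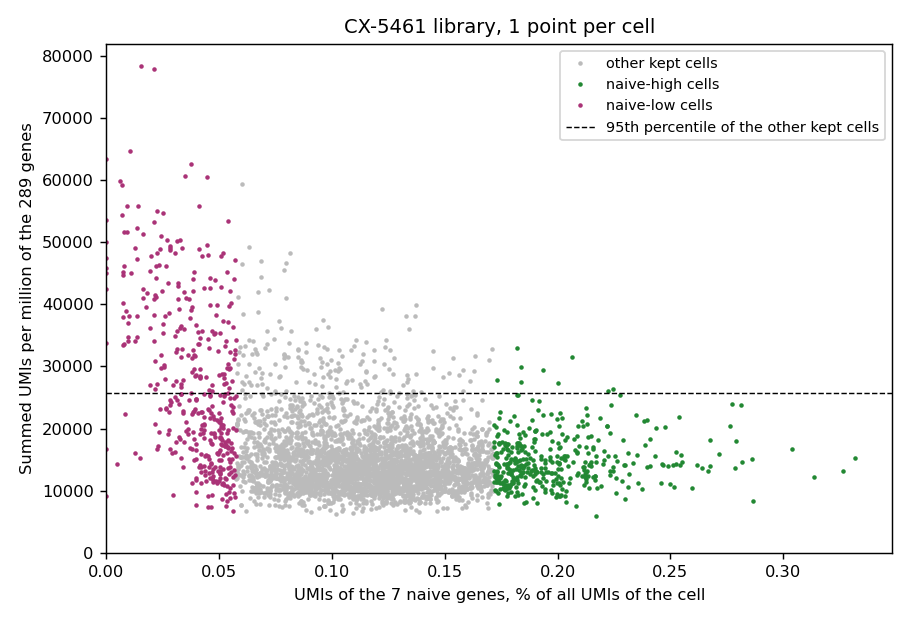
Each point is 1 kept cell of the CX-5461 library, with its share of UMIs on the 7 naive genes (x axis, percent) and the summed CPM of the 289 genes that were 4-fold or more higher in CX-5461 than control middle cells (y axis). Naive-low cells (purple) reach 78282 CPM and 188 of 399 lie above the dashed line at 25676 CPM, whereas 9 of 399 naive-high cells (green) do. The 289 genes were admitted partly by UMIs of the naive-low cells.

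Several genes with high ratios in the CX-5461 naive-low cells, named after their values were seen, had few or no UMIs in control. They were admitted largely by UMIs of the naive-low cells, which favours high ratios. Rgs14 had 518 UMIs there and 19 in the naive-high cells, Krt15 537 and 66, Itgb2 309 and 22, and Gal 209 and 20. Rgs14, Krt15, Itgb2, Gal and Tnfrsf18 would not enter by the limit of 800 UMIs in the middle cells. Robo3 and Lmo1 would. Rgs14, a regulator of G-protein signalling, was summed at 94.4 CPM in the naive-low cells, 7.79 in the middle and 3.49 in the naive-high cells of CX-5461, a log2 ratio of 4.76 (4.10 to 5.50). A Rgs14 UMI was found in 47.4% of the naive-low, 7.83% of the middle and 4.51% of the naive-high cells, and in 28.6%, 3.38% and 1.75% at 5000 UMIs per cell. In control, 1 UMI of Rgs14 was counted in the naive-low cells and 0 in the naive-high cells. The basal keratin gene Krt15 was at 97.9, 12.8 and 12.1 CPM in CX-5461 (3.01, 2.64 to 3.41) and at 0 UMIs in all kept cells of control, where 0 of 247 naive-low cells with a UMI has an upper limit of 1.48%. Itgb2, a leukocyte integrin, had 56.3 against 4.04 CPM (3.80), the neuropeptide gene Gal 38.1 against 3.67 CPM (3.37), and the axon guidance receptor gene Robo3 123 against 19.3 CPM (2.68). The LIM-only factor gene Lmo1 had 156 against 28.3 CPM (2.46), and Tnfrsf18 (GITR), a receptor of the TNF family, 95.5 against 13.0 CPM (2.87). Germ layer markers as a list were low, with 37.9 CPM in the naive-low and 30.5 CPM in the naive-high cells (0.31, 0.01 to 0.62). Fibroblast markers outside the rule summed to 350 CPM in the naive-low, 302 in the middle and 318 CPM in the naive-high cells of this library, and their part in the result was not tested. Besides Krt15, the keratin list had Krt5 at 47.4 against 15.6 CPM (1.60, 1.24 to 1.97), and of the trophectoderm list Krt7, a simple epithelial keratin, had 351 against 174 CPM (1.01, 0.90 to 1.13), while Tfap2c of the same list had -0.54.

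The p53 targets were unevenly higher in the CX-5461 naive-low cells. Of 16 tested members, 15 had a log2 ratio above 0, 5 were past 1.5-fold higher, against 10.8% of all genes, and none was lower. Their median log2 ratio was 0.47 against -0.08 over all tested genes, and the summed ratio was 0.18 (0.15 to 0.20). The 5 were the death receptor gene Fas (36.6 against 7.35 CPM, 2.32, 1.82 to 2.85), the BH3-only gene Bbc3 (Puma, 1.15), Mdm2 (1.12), the RNA-binding protein gene Zmat3 (0.96) and the desmosomal p53 target Perp (0.70). The most abundant targets barely differed. Rps27l was at 2453 against 2362 CPM (0.05), Bax at 1051 against 1029 CPM (0.03) and the cell cycle inhibitor Cdkn1a at 599 against 576 CPM (0.06, -0.01 to 0.13). In control, the list had 3 of 10 members higher, beside 6.03% of all genes, among them Cdkn1a (1.26). Without the marked cells 0 of 8 were higher, beside 1.83% of all genes, and Cdkn1a was at -0.41 (-0.60 to -0.22). Stress genes went both ways in CX-5461. Ddit4 (Redd1, an inhibitor of mTORC1) had 120 against 34.9 CPM (1.78, 1.55 to 2.02) and Trib3 1.28, but the endoplasmic reticulum chaperone Hspa5 (BiP) had -0.65 and asparagine synthetase Asns -0.76. In control Hspa5 had 0.97 (0.76 to 1.18), at 145 against 74.0 CPM, and 0.98 without the marked cells.

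**Figure D5:**
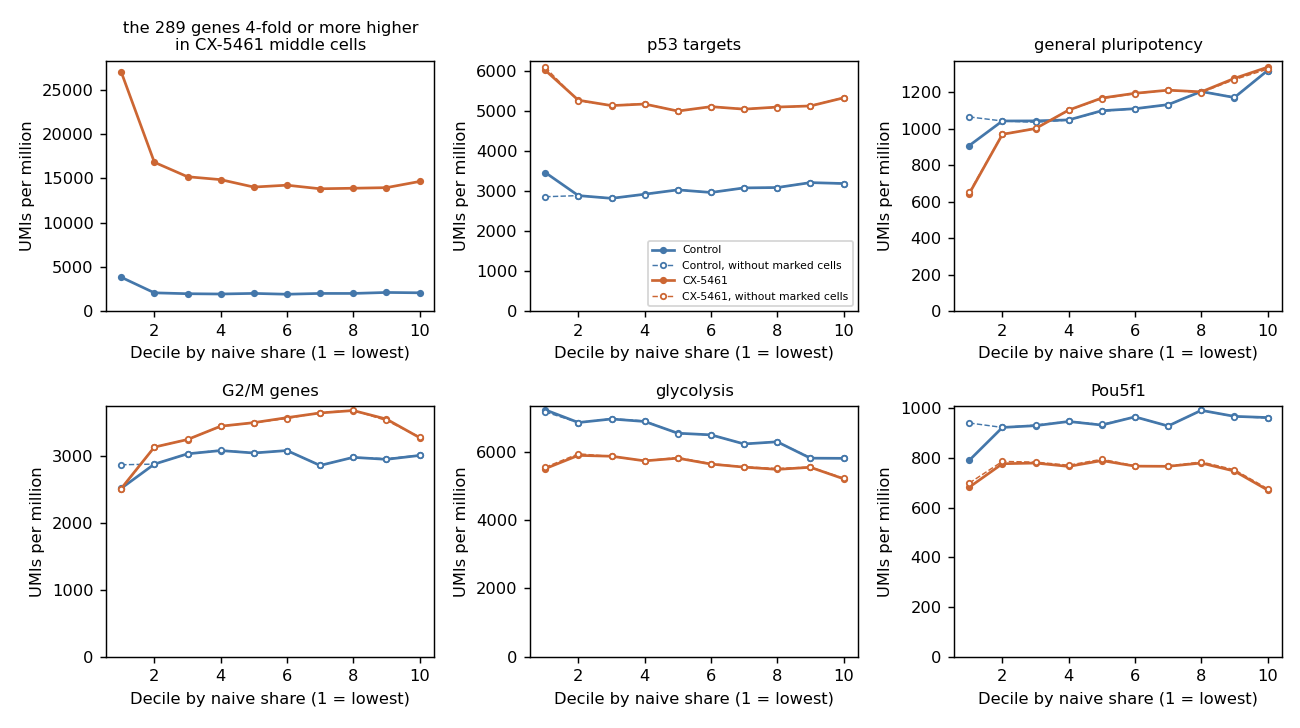
Summed CPM of 6 gene sets (panels, y axis from 0) in each decile of kept cells ordered by naive share (x axis, 1 is the lowest) for control (blue) and CX-5461 (orange), with open points, drawn for 5 of the sets, leaving out feeder-marked and 2C-marked cells. The 289-gene set rises to 26986 CPM in the lowest CX-5461 decile from 16805 in the next, and general pluripotency falls from 1336 in the highest to 644 in the lowest. The 289 genes were admitted partly by UMIs of the lowest decile, which favours a rise there.

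For the 289 genes and Rgs14 the step was steepest at the lowest decile, which is the naive-low cells. The 289 genes were admitted partly by UMIs of these cells, and Rgs14 was named after its ratio in them was seen. Part of this step is therefore built in, and deciles were not computed for genes admitted by the middle cells alone. In CX-5461 the 289 genes were at 26986 CPM in the lowest decile, 16805 in the second and 15176 in the third, and Rgs14 at 94.4, 24.0 and 11.5 CPM. General pluripotency was at 644 CPM in the lowest decile, 969 in the second and 1336 in the highest. Pou5f1 in CX-5461 was lower at both ends, at 682 CPM in the lowest, 670 in the highest and between 746 and 789 CPM in the 8 deciles between them.

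A share of the G2/M genes was lower in the CX-5461 naive-low cells. Of 22 tested members 10 were past 1.5-fold lower and 1 higher, against 11.8% and 10.8% of all genes, and the summed log2 ratio was -0.38 (-0.41 to -0.35). The mitotic kinase Plk1 had -0.99, the spindle protein gene Nusap1 -1.08 and topoisomerase Top2a -0.82, while the spindle checkpoint kinase gene Bub1b had 0.88 (0.68 to 1.09). The S-phase list had 4 of 17 lower, against 11.8% of all genes, and none higher, with cyclin E1 (Ccne1) at -1.17. In control the G2/M list had -0.26, with 6 of 20 genes lower against 6.98% of all genes, which became -0.06 (-0.10 to -0.02) with 1 of 20 lower without the marked cells, against 5.12%. Among 23 nucleolar genes, 5 were lower and none higher in CX-5461, against 11.8% and 10.8% of all genes, and the summed log2 ratio was -0.12 (-0.14 to -0.10). Ubtf, the RNA polymerase I factor that binds rDNA, had -0.76 (-1.04 to -0.48) in control, which became -0.54 without the marked cells, and -1.27 (-1.56 to -0.98) in CX-5461, and Polr1a, the largest subunit of that polymerase, had -0.78 in control and 0.47 (0.27 to 0.68) in CX-5461. The 77 ribosomal protein genes had summed log2 ratios of -0.03 and 0.04. In the DNA methylation list 2 of 5 tested genes in control and 4 of 6 in CX-5461 were lower, against 6.98% and 11.8% of all genes, with the remodeller gene Hells at -0.56 and -1.02 and Dnmt1 at -1.14 and -0.43.

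In control, glycolysis genes were higher as a list, with 7228 against 5808 CPM and a log2 ratio of 0.32 (0.29 to 0.34), and 0.30 without the marked cells, against 0.08 in CX-5461. Of 13 tested members, 2 were past 1.5-fold higher and 1 lower, beside 6.03% and 6.98% of all genes. Of 12 without the marked cells none was higher and 1 lower, beside 1.83% and 5.12%. Lactate dehydrogenase Ldha had 0.86 and Pgk1 0.63 with all cells, and 0.48 and 0.41 without the marked ones, while hexokinase Hk2 had -0.84 and -0.72. Among the genes higher in control without the marked cells, named after their values were seen, were Hspa5 (0.98), the disulfide isomerase gene Pdia6 (0.96), the apolipoprotein gene Apoe (0.91) and Hsp90b1 (0.79), 3 of which encode endoplasmic reticulum chaperones or enzymes. In CX-5461, also without the marked cells, the same 4 genes had -0.62, -0.39, 0.05 and -0.45.

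The naive-low cells of the libraries are set side by side as a description only. They were chosen on these 7 genes at limits of 0.0838% in control and 0.0577% in CX-5461, so their levels partly follow from the rule. The control group also holds the 31 feeder-marked cells, with Nanog at 18.3 CPM against 111 CPM in its other members. The 7 genes summed to 607 CPM in control and 392 CPM in CX-5461. The log2 ratio of CX-5461 over control was -0.63, against -0.28 in both the middle and the naive-high cells. For Nanog the log2 ratio of CX-5461 over control was -0.98 in the naive-low cells, 0.32 in the middle and 0.41 in the naive-high cells. For Zfp42 it was -1.47, -0.86 and -0.92.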

How the data were processed

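The study made single-cell libraries of untreated mES cells and of mES cells given CX-5461 with the 10x 3' V2 chemistry. The authors deposited 1 table of raw UMI counts per gene and barcode for each condition, made with a published droplet pipeline. In that pipeline the study used HISAT2 in place of Bowtie for repeat sequences. The submitters' processing notes name mm10 and Seurat 2.3.4. The annotation release behind the single-cell counts was not given in the sources used here. Gene identifiers were matched without version to GENCODE (54079 of 54146). The tables held 49610287 UMIs in control and 69841836 in CX-5461.

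Cells were kept and ranked by the rule given above, UMIs were summed per group and scaled to CPM (Python 3.11.15, numpy 2.4.6, scipy 1.17.1, pandas 2.3.3). With 1 library per condition no test was run. Exact Poisson, conditional binomial and Clopper-Pearson intervals at 95% cover counting error only. edgeR 4.0.16 gave TMM factors as an alternative. No doublet caller was run, and cells above 2 times the median UMIs were left out in an alternative. Named genes were the 12 protein-coding genes most different in each direction in both libraries, the 3 of opposite direction each way, up to 4 members with the most UMIs of each list, and any list member past 1.5-fold the same way in both libraries. Other genes, including list members outside this rule such as Fas, Bbc3, Zmat3, Perp, Nr0b1, Ubtf and Polr1a, were named after their values were seen. A gene that this rule names is not reported here. Members and lists were chosen with earlier results of these data known. The scripts were tested on simulated data.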

Additional observations from a re-analysis of the deposited data

Results flagged for a closer look

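Some genes and lists were higher in the naive-low cells of one library and lower in those of the other. Each value is the log2 ratio of control minus that of CX-5461, and with 1 library per condition the difference was not tested. Prr13 had 1.15 in control and -1.08 in CX-5461 (difference 2.24), the neuronal tubulin gene Tubb3 0.80 and -1.42 (2.22), and Tubb2a 0.73 and -1.21 (1.94). Without feeder-marked and 2C-marked cells the control values of these 3 genes were -0.07, 0.27 and 0.23. The reverse held for Bub1b, with -0.73 and 0.88 (-1.61), Ankrd11, with -0.72 and 0.82 (-1.54), and the ubiquitin ligase gene Siah1b, with -0.77 and 0.75 (-1.52). Their control values without those cells were -0.48, -0.61 and -0.49.

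Among the lists, germ layer markers differed by -0.90, ERK targets by 0.58, imprinted genes by 0.53, integrated and endoplasmic reticulum stress genes by 0.38, sterol and fatty acid synthesis by 0.32, heat shock chaperones by 0.30 and ribosomal proteins by -0.069. Without feeder-marked and 2C-marked cells, control and CX-5461 had the same sign for ERK targets (-0.20 and -0.38), imprinted genes (-0.21 and -0.44) and sterol and fatty acid synthesis (-0.0078 and -0.16). The signs still differed for germ layer markers (-0.54 and 0.21), integrated and endoplasmic reticulum stress genes (0.21 and -0.066), heat shock chaperones (0.26 and -0.16) and ribosomal proteins (-0.0084 and 0.043).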

How the results depend on the processing

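Counts of genes past 1.5-fold moved with the settings. They are given as control higher, control lower, CX-5461 higher, CX-5461 lower, both higher and both lower, and were 211, 244, 558, 610, 23 and 120 as reported. They were 49, 31, 150, 98, 2 and 9 when cells were thinned to 5000 UMIs, and 108, 93, 247, 223, 7 and 39 when the choice and the measurement used separate UMIs. Against all other kept cells they were 470, 477, 1298, 1349, 89 and 139. With genes of 50 UMIs they were 652, 1004, 1374, 1657, 122 and 408, and with genes of 1 UMI 4184, 5180, 5300, 5981, 1266 and 1532. The number of genes tested moved as well, so these counts are not parts of the same total. In control and CX-5461 it was 3497 and 5153 as reported, 1522 and 2537 thinned, and 2138 and 3201 on separate UMIs. It was 8212 and 10510 against all other kept cells, 7498 and 9784 at 50 UMIs, and 19696 and 22178 at 1 UMI. With the lowest and highest 20%, CX-5461 lower was 404 of 7506 genes tested, and both higher 13 and both lower 71 of 5199. With 500 UMIs and 0.2 mitochondrial, control had 343 and 436 of 3002 genes tested. Without cells with a collagen UMI, control had 62 and 157, and both 5 and 67. Without feeder-marked cells, control higher was 57, and both 6 and 79. Without feeder-marked and 2C-marked cells, control higher was 62, and both 4 and 78. These last alternatives were chosen after seeing the data.

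The choice of cells fixes the sign of the 7 genes, except on separate UMIs. Their log2 ratio, -1.99 in control and -2.34 in CX-5461, was -2.88 and -2.51 with 500 UMIs and 0.2 mitochondrial, -1.89 and -2.27 with 10000 UMIs, -2.72 and -3.25 thinned, -1.12 and -1.24 on separate UMIs (-1.235 in CX-5461), -1.90 and -2.17 within bins of depth, -1.48 and -1.69 with 20%, -2.60 and -3.02 with 5%, and -1.29 and -1.65 against all other cells. In control it was -1.79 without collagen UMIs, -1.76 without feeder-marked cells and -1.76 without both kinds of marked cells, and in CX-5461 -2.26 with TMM and -2.26 without cells with a 2C UMI.

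In control, signs changed without collagen UMIs, without feeder-marked and without both kinds of marked cells for primitive endoderm (-0.30, -0.53 and -0.58) and keratins (-0.28, -0.25 and -0.22), and in the last pair of settings for macrophage markers (-0.40 and -0.39), Ftl1 (-0.15 and -0.18), Cryab (-0.16 and -0.15) and Prr13 (-0.067 and -0.066). Lists under 1.5-fold in control that also changed sign without both kinds of marked cells were p53 targets (0.12 to -0.18), immediate early genes (0.14 to -0.27), ERK targets (0.17 to -0.20), imprinted genes (0.16 to -0.21), sterol and fatty acid synthesis (0.16 to -0.0078), Nodal and BMP (0.05 to -0.40), nucleolar genes (-0.06 to 0.12), naive factors outside the rule (-0.21 to 0.04), germline genes (-0.05 to 0.20) and trophectoderm (-0.0042 to 0.05), and in CX-5461 fibroblast markers (0.14 to -0.14) and antigen presentation (0.25 to -0.10). The 2C genes had -1.68 thinned and -1.78 without marked cells in control, and -0.12 without marked cells in CX-5461. Without 2C UMIs, Gm8300 and Gm5662 had no UMIs left, so their values of -0.064 in control and -0.0016 in CX-5461 carry no information. Without marked cells, on few UMIs, Gm8300 had -2.60 and -1.52 and Gm5662 -1.60 and -0.60, and Gm5662 had -2.70 thinned in control. Ftl1 in CX-5461 had -0.041 without collagen UMIs and -0.014 without feeder-marked cells. The cause of the other changes was not tested.

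No paired analysis was possible because barcodes carry no sample of origin, and for the same reason leaving out each listed sample could not be run. Admitting genes by the middle cells alone, also chosen after seeing the data, took the share of genes 4-fold or more higher in CX-5461 that were higher in its naive-low cells from 68.5% to 57.9%. Depth limits genes under 200 UMIs over both groups.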
